A study of Homo sapiens with 18 samples.

Results

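The 10 genes described here form the gate through which a cell passes from G1 into S phase: the D cyclins *CCND1*, *CCND2* and *CCND3*, their kinases *CDK4* and *CDK6*, the inhibitors *CDKN1B*, *CDKN2C* and *CDKN2D*, the pocket protein gene *RB1* and the transcription factor gene *E2F1*. They were chosen by symbol from 26941 genes, with their levels under control siRNA and their response to *SOX11* siRNA already known. Their levels and responses are therefore given as a description, and a count of members past a threshold stands only beside the share of all genes past it. RNA was sequenced from REH, 697 and RCH-ACV, 3 established lines of B-cell precursor acute lymphoblastic leukemia. Of every line, 3 samples were nucleofected with 300 nM of *SOX11* siRNA and 3 with 300 nM of a non-specific control siRNA, and all were collected after 48 h, so the control samples went through nucleofection too. The sample titles call the *SOX11* siRNA samples KO, but the treatment was an siRNA.

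D cyclins bind CDK4 or CDK6 in early G1, and the active kinase phosphorylates RB1. Hypophosphorylated RB1 holds E2F factors inactive at the promoters of genes for DNA replication, and its phosphorylation frees them. CDKN2C and CDKN2D, members of the INK4 family, bind CDK4 and CDK6 directly, while CDKN1B acts mainly on the cyclin E kinase CDK2. In the B lineage the D cyclins and CDK6 are known for linking growth factor and pre-B receptor signals to proliferation.

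In hg19 *CCND1* is at chr11:69455924-69469242 (plus strand) and *CCND2* at chr12:4378937-4414519 (plus strand). *CDK4* is at chr12:58141510-58149796 (minus strand) and *CDK6* at chr7:92234235-92465887 (minus strand). Of the inhibitors, *CDKN1B* is at chr12:12838432-12875303 (plus strand), *CDKN2C* at chr1:51426417-51440306 (plus strand) and *CDKN2D* at chr19:10677136-10679735 (minus strand). *RB1* is at chr13:48877880-49173572 (plus strand) and *E2F1* at chr20:32263283-32274191 (minus strand).

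The total count per sample lay between 7039594 and 16592492, so the floor of 3 counts stood at 0.181 to 0.426 CPM, the count scaled to library size. The mean *SOX11* level was 96.4 ± 2.92 CPM in REH control samples and 54.2 ± 6.90 in *SOX11* siRNA samples, 59.7 ± 0.28 and 31.7 ± 0.85 in 697, and 131 ± 6.07 and 82.4 ± 4.06 in RCH-ACV (SD, n = 3). *SOX11* thus fell in each line, with adjusted p = 1.45e-08, 0.000221 and 2.46e-06 in edgeR's quasi-likelihood test, and the ratios of the means were 0.562, 0.531 and 0.629, so a good part of the mRNA remained. The first control and the third *SOX11* siRNA sample of 697 and the third *SOX11* siRNA sample of RCH-ACV stood apart from their replicates: the chi-square per degree of freedom was 3.47 to 5.18 in pairs with one of them and 1.30 to 2.27 in the others. Of 10 B-cell precursor markers, 9 in REH and all 10 in 697 and RCH-ACV had at least 3 counts in every sample, and *VPREB1* was the exception in REH. The 5 T-cell markers summed to at most 0.349 CPM in any sample. The 5 myeloid markers summed to 14.1 to 15.7 CPM in REH control samples and 8.83 to 10.0 in *SOX11* siRNA samples. Their sums overlapped between the siRNA groups in 697 and RCH-ACV, at 2.35 to 4.64 and 23.6 to 31.0 CPM. *ELANE* was at 0 in every line. In REH *MPO* fell by a log2 fold change of -0.78 (adjusted p = 0.000237 in edgeR), and the other myeloid markers had too few counts to be tested. In 1 fit over the 18 samples *MPO* stood at 1.97 ± 1.69 in 697 and -1.72 ± 0.66 in RCH-ACV (SE). *CSF1R* went the other way in REH in that fit, at 0.67 ± 0.49, with 0.46 ± 0.26 in 697 and -0.08 ± 0.11 in RCH-ACV. The myeloid sum is therefore not read as a change of the whole set. The 3 plasma cell markers summed to 239 to 319 CPM over all samples, and the sum was lower with *SOX11* siRNA, without overlap, in 697 and RCH-ACV. *SDC1* was at 0 in all 6 samples of 697, so the sum there holds only *XBP1* and *PRDM1*. In RCH-ACV the log2 fold changes were -0.17 ± 0.045 for *XBP1*, -0.79 ± 0.41 for *PRDM1* and -0.02 ± 0.089 for *SDC1* (SE, 1 fit over the 18 samples). The sum is therefore not read as a plasma cell signature. The summed B-cell precursor markers were 7050 to 7240 CPM in control samples and 7690 to 7810 in *SOX11* siRNA samples in REH, 5070 to 5430 and 4370 to 4620 in 697, and 5300 to 5530 and 4320 to 5410, with overlap, in RCH-ACV. Single markers went both ways, as with *MME* (0.36) and *EBF1* (-0.13) in REH and with *MME* (0.56), *CD79A* (0.46) and *DNTT* (-0.37) in RCH-ACV. Their part in the results given here was not tested. In bulk RNA, fewer cells of a type and less RNA per cell cannot be told apart.

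*CCND3* supplied nearly all D cyclin mRNA in the 3 lines. Per kilobase of mRNA, its level under control siRNA was 379 ± 11.2 RPKM in REH, 567 ± 12.8 in 697 and 396 ± 15.1 in RCH-ACV (SD, n = 3). It made up 99.9% of the summed D cyclin RPKM in each of the 6 REH samples and 100% after rounding in the 12 samples of the other lines. *CCND3* lies at chr6:41902672-42018095 on the minus strand (hg19), and the RefSeq table lists several overlapping transcripts for it, of which the one with the most reads was kept.

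The REH control samples held 751, 793 and 759 CPM of *CCND3* and the *SOX11* siRNA samples 849, 818 and 797. All REH samples with *SOX11* siRNA lay above the control samples, by a log2 fold change of 0.10 ± 0.032 (SE). In 697 the order was opposite, with 1122, 1149 and 1174 CPM under control siRNA and 1081, 1059.8 and 1090.4 under *SOX11* siRNA. No 697 sample overlapped between the groups, and the log2 fold change was -0.10 ± 0.038. RCH-ACV had 802, 770.2 and 831 against 788, 811 and 807 CPM, and these groups overlapped.

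*CCND2*, a D cyclin widely used by B lymphocytes, was measured at trace level in REH and at or under the floor elsewhere. The REH control samples held 25, 22 and 10 counts (2.38, 1.72 and 1.29 CPM) and the *SOX11* siRNA samples 4, 6 and 6 counts (0.384, 0.791 and 0.574 CPM). The highest of the *SOX11* siRNA values was under the lowest of the control values. The summed counts were 57 and 16, a depth-corrected ratio of 0.306 with an exact 95% interval of 0.164 to 0.541 that covers counting error only, and edgeR's log2 fold change was -1.68 ± 0.38. This was the largest decrease among the members and the response for which the gene was picked. Even the REH control level was 0.277 RPKM, beside 379 RPKM for *CCND3*.

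In 697, *CCND2* had 0 counts in the control samples and 1 count in all *SOX11* siRNA samples together, and in RCH-ACV it had 2 and 0. The REH control level was at least 13.7-fold higher than that of the 697 control samples, taking 3 counts over that group as the floor. *CCND1*, the D cyclin of mantle cell lymphoma, was as scarce: 3 to 11 counts a sample in REH, 0 to 2 in 697 and 0 to 2 in RCH-ACV. Its summed counts in REH were 15 under control siRNA and 21 under *SOX11* siRNA, a ratio of 1.53 with an exact interval of 0.75 to 3.18, so no difference was detectable at this depth. Of the *CCND2* mRNA, 15.4% (999 bases) lies over exons of another annotated gene, ENSG00000285901, on the same strand, and 2.5% over the antisense gene *CCND2-AS1*, whose reads reached at most 0.19 CPM. edgeR's filter on low counts removed *CCND1* in the 3 lines and *CCND2* in 697 and RCH-ACV.

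**Figure D1:**
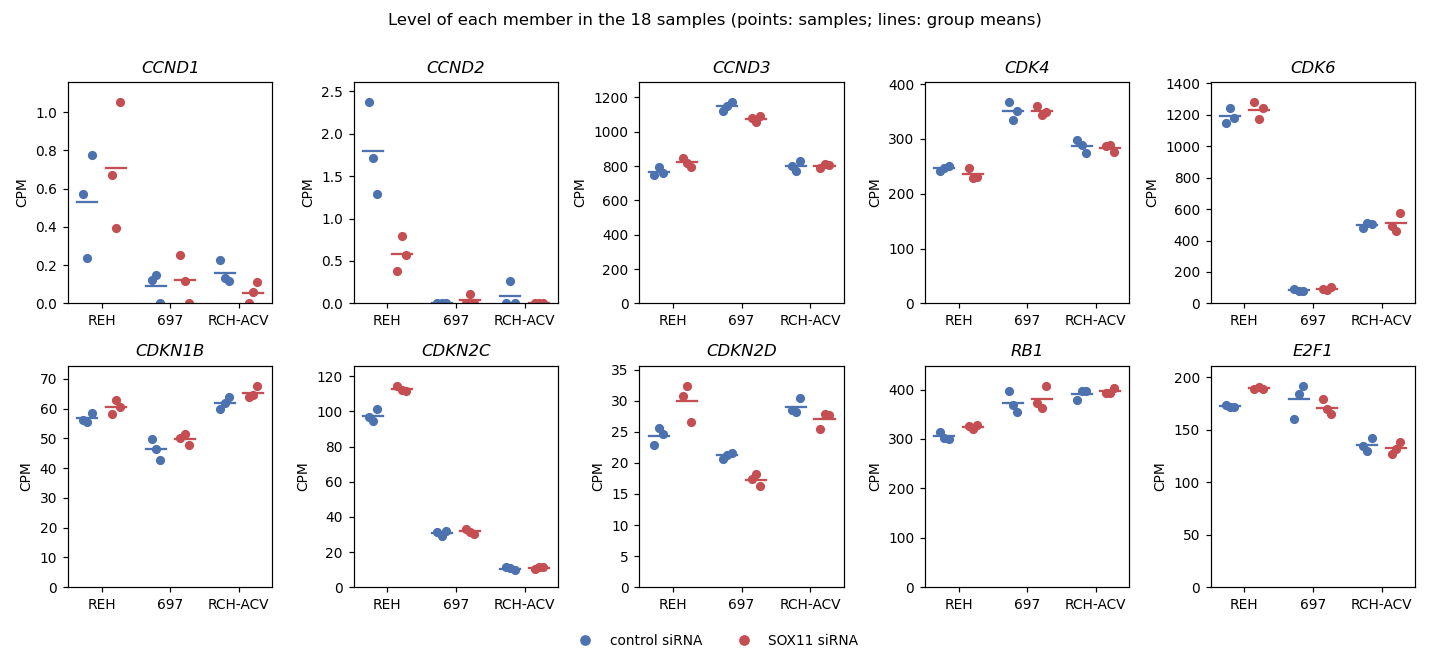
Level of each of the 10 genes in CPM (vertical axis, linear from 0, a scale of its own for each gene) in REH, 697 and RCH-ACV, with points for samples and lines for group means of 3 samples. *CDK6* and *CDKN2C* are highest in REH, *CCND3* and *CDK4* in 697, and the *CCND2* points under *SOX11* siRNA lie below those of the control samples in REH.

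The levels of *CDK6* in the 3 lines did not overlap: it was highest in REH, intermediate in RCH-ACV and lowest in 697. The REH control samples held 1148, 1242 and 1179.7 CPM and the *SOX11* siRNA samples 1282, 1172 and 1240.5. RCH-ACV had 477, 511 and 507 CPM under control siRNA and 494, 461 and 576 under *SOX11* siRNA, and the highest of these is the sample that stood apart. In 697 the levels were 94.2, 79.5 and 79.5 against 89.8, 85.3 and 107 CPM. Groups with and without *SOX11* siRNA overlapped in each line, and the log2 fold changes were 0.06 ± 0.033, 0.03 ± 0.060 and 0.15 ± 0.091 in REH, RCH-ACV and 697.

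*CDK4* varied far less and in another order. Its level lay between 229 and 249.9 CPM in the REH samples, 335 and 367 in 697, and 274 and 297 in RCH-ACV. The siRNA groups overlapped in every line, with log2 fold changes between -0.06 and 0.00. Of the *CDK4* mRNA, 57.8% (1078 bases) lies over exons of *TSPAN31* on the opposite strand, and the strand setting of the authors' counting is not given in the sources used here. *TSPAN31* itself was counted at no more than 23.5 CPM in any sample.

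Which kinase was the more abundant depended on the scale in REH and RCH-ACV. In 697 *CDK4* was the more abundant on both scales. In CPM, the median ratio of *CDK6* to *CDK4* was 5.08 in REH, 1.75 in RCH-ACV and 0.249 in 697. The *CDK6* mRNA is 11663 bases long and that of *CDK4* 1865, and per base the same ratios became 0.811, 0.278 and 0.0398. *CDK6* therefore made up 44.8% (43.0 to 46.3) of the summed RPKM of both kinases in REH, 21.8% (20.4 to 25.0) in RCH-ACV and 3.83% (3.50 to 4.66) in 697 (median and range, n = 6). The ranges of the 3 lines do not overlap.

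The INK4 inhibitor *CDKN2C* followed the lines as well. The REH control samples held 97.0, 94.7 and 101 CPM and the *SOX11* siRNA samples 115, 112 and 112, with no overlap and a log2 fold change of 0.22 ± 0.046. In 697 the 6 samples lay between 29.2 and 33.3 CPM and in RCH-ACV between 9.55 and 11.5, and the siRNA groups overlapped in both. *CDKN2C* and *CDK6*, the kinase that its protein binds, were thus both highest in REH, but their order in the other lines was opposite.

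*CDKN2D*, the other INK4 inhibitor measured, had siRNA groups that did not overlap in any line. In REH it went from 22.9, 25.6 and 24.6 CPM under control siRNA to 30.8, 32.4 and 26.5 under *SOX11* siRNA, a log2 fold change of 0.29 ± 0.086. In 697 it went from 20.6, 21.3 and 21.6 to 17.4, 18.2 and 16.3 CPM, a log2 fold change of -0.29 ± 0.10. RCH-ACV had 28.5, 28.2 and 30.4 CPM against 25.5, 27.9 and 27.6, with a log2 fold change of -0.10 ± 0.079. The siRNA samples were thus above the control samples in REH and below them in 697 and RCH-ACV.

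*CDKN1B*, the Cip/Kip inhibitor, was the steadiest of the 3. It ranged over 18 samples from 42.6 CPM in a 697 control sample to 67.7 in an RCH-ACV sample with *SOX11* siRNA, and its log2 fold changes were 0.10, 0.10 and 0.08 in REH, 697 and RCH-ACV with SE of 0.056 to 0.079. The siRNA groups of *CDKN1B* overlapped in each line. Per kilobase, *CDKN2C* made up 71.1% of the summed level of the 3 inhibitors in REH, 48.6% in 697 and 19.4% in RCH-ACV (medians, n = 6). These shares use the 995-base reference mRNA of *CDKN2C*, and with the longest annotated transcript of 2904 bases they become 45.8, 24.5 and 7.66%. In 697 *CDKN2C* was the most abundant of the 3 only with the shorter one. Of the other INK4 genes, *CDKN2B* had 0 counts in all 18 samples, which allows up to 3 counts a sample. *CDKN2A* was counted over the transcript of its ARF product, so its INK4 product was not read separately. That transcript had 0 in the 6 REH samples, 0 to 5 counts in 697 and 0.873 to 1.89 CPM in RCH-ACV.

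**Figure D2:**
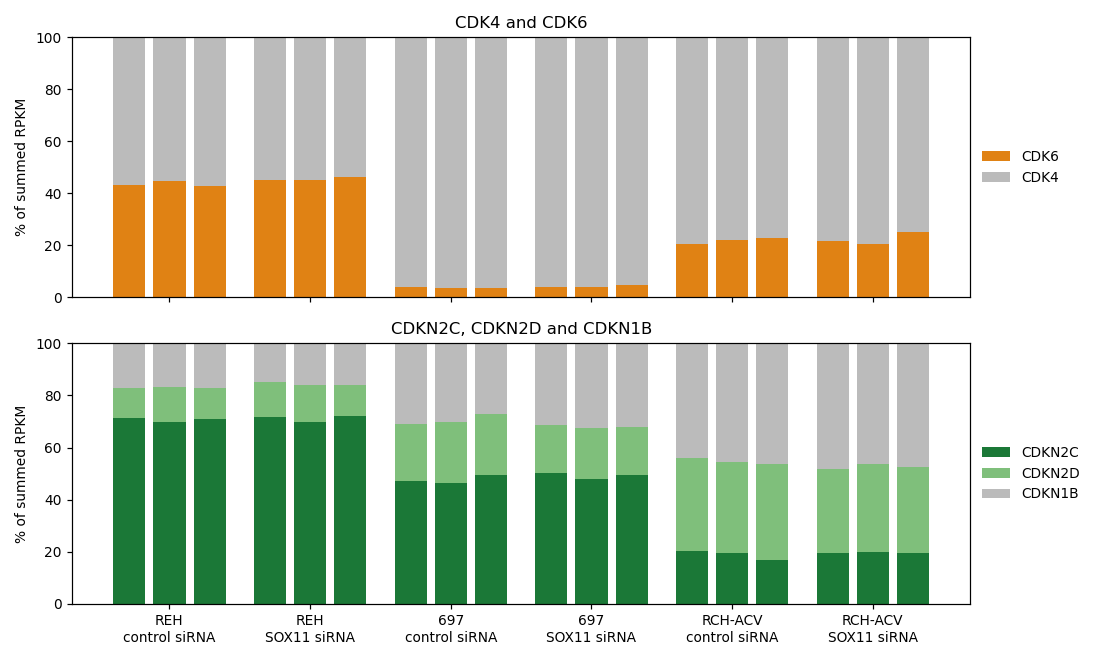
Share of the summed RPKM (vertical axis, percent) of *CDK4* and *CDK6* (top) and of *CDKN2C*, *CDKN2D* and *CDKN1B* (bottom), 1 bar for each of the 18 samples, computed with the length of the reference mRNA. The *CDK6* share is 43.0 to 46.3% in REH, 3.50 to 4.66% in 697 and 20.4 to 25.0% in RCH-ACV with either siRNA.

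*RB1*, the substrate of these kinases and the repressor at the gate, was expressed in all samples. The REH control samples held 315, 301 and 300.5 CPM and the *SOX11* siRNA samples 327, 321 and 328, which did not overlap and differed by 0.10 ± 0.034 on the log2 scale. The 697 samples lay between 354 and 408 CPM and those of RCH-ACV between 379.7 and 403, with overlapping siRNA groups and log2 fold changes of 0.03 ± 0.054 and 0.02 ± 0.038. Per kilobase, *RB1* stood at 64.1, 78.3 and 82.1 RPKM under control siRNA in REH, 697 and RCH-ACV.

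*E2F1*, the activator that RB1 restrains, had the tightest replicates of the members in REH. Its level was 173, 171 and 172 CPM under control siRNA and 189, 190.4 and 189 under *SOX11* siRNA, with no overlap and a log2 fold change of 0.14 ± 0.038. The 697 control samples spread from 160.3 to 192 CPM, around the *SOX11* siRNA samples at 179, 169 and 165. In RCH-ACV it lay between 126 and 142 CPM, and the groups overlapped. The log2 fold changes were -0.07 ± 0.075 in 697 and -0.03 ± 0.051 in RCH-ACV.

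**Figure D3:**
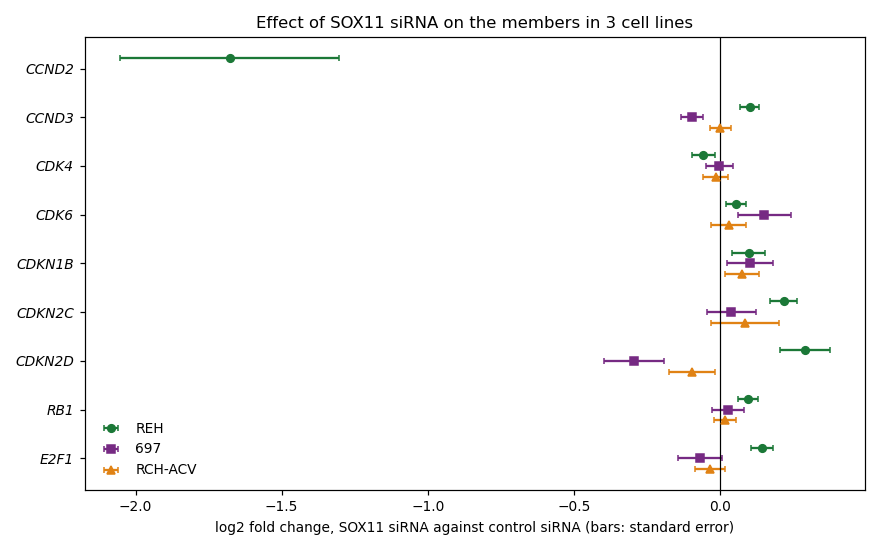
log2 fold change of *SOX11* siRNA against control siRNA (horizontal axis, bars show the standard error from edgeR, n = 3 against 3) for the 9 genes that passed the filter on low counts in at least 1 line. *CCND2* in REH at -1.68 stands far from the other values, which lie between -0.29 and 0.29, and *CDKN2D* is above 0 in REH and below 0 in 697 and RCH-ACV.

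Counted over the tested members, a gene was called where its Benjamini-Hochberg adjusted p in edgeR was under 0.05. In REH 3 of 9 were called (*CDKN2C* and *E2F1* higher, *CCND2* lower), where 4.65% of the 12787 tested genes were, with 6 at an unadjusted p under 0.05 and 1 called in DESeq2. In 697 0 of 8 were called beside 0.559% of all genes, with 2 at an unadjusted p under 0.05 and 0 in DESeq2. In RCH-ACV 0 of 8 were called beside 7.51%, with 0 at an unadjusted p under 0.05 and 0 in DESeq2. The siRNA groups did not overlap for 6 of 9 members in REH, where this held for 21.4% of all tested genes, for 2 of 8 in 697 (13.1%) and for 1 of 8 in RCH-ACV (25.9%). Nothing is read from these counts, because the members were chosen with this response in view. The count of 3 in REH went to 1 without the first control or the first *SOX11* siRNA sample and to 5 without the third *SOX11* siRNA sample. With each of the 6 samples left out in turn, *CDKN2C* stayed under the threshold in 6 fits, *CCND2* in 4 and *E2F1* in 1. For the same reason these fits are a description and do not support the members' responses.

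Levels were set side by side between lines in the 9 samples with *SOX11* siRNA, and again in the control samples. Both sets had entered the choice of the genes, through the control levels and the siRNA response, so the members' differences are a description too. In 697 against REH all 8 members that passed the filter were called, 3 higher and 5 lower, where 76.5% of 13771 genes were called. In RCH-ACV against REH 5 of 8 were called beside 74.7%, and in RCH-ACV against 697 7 of 8 beside 65.3%. Most genes thus differed between the lines, members or not, and nothing is read from the members' counts. The lines differ in origin and genotype, which cannot be told apart here.

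*CDK6* had the largest log2 difference among the 8 members: with *SOX11* siRNA it was lower in 697 than in REH by a log2 difference of -3.71 ± 0.082 and lower in RCH-ACV than in REH by -1.27 ± 0.071 (SE from edgeR, n = 3 for each line). RCH-ACV exceeded 697 by 2.44 ± 0.080. *CDKN2C* showed log2 differences of -1.83 ± 0.065 in 697 and -3.33 ± 0.073 in RCH-ACV against REH, and RCH-ACV lay below 697 by -1.49 ± 0.085. The samples of neighbouring lines did not overlap in the order REH, RCH-ACV, 697 for *CDK6* or REH, 697, RCH-ACV for *CDKN2C*.

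*CCND3* was higher in 697 than in REH by 0.39 ± 0.039 and than in RCH-ACV, where the log2 difference from 697 was -0.42 ± 0.039. Between RCH-ACV and REH its samples with *SOX11* siRNA overlapped, with a difference of -0.03 ± 0.039, and in the control samples the difference was 0.07. *CDK4* followed the order 697, RCH-ACV, REH, with log2 differences from REH of 0.57 ± 0.048 and 0.27 ± 0.047 and of -0.30 ± 0.047 between RCH-ACV and 697. *RB1* was lower in REH, by a log2 difference of 0.23 ± 0.048 from 697 and of 0.28 ± 0.047 from RCH-ACV. The *RB1* samples of RCH-ACV and 697 overlapped, with a difference of 0.06 ± 0.047, or 0.12 when scaled by library size alone.

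*CDKN1B* was lower in 697 than in REH by a log2 difference of -0.28 ± 0.065, higher in RCH-ACV than in 697 by 0.39 ± 0.064, and differed by 0.11 ± 0.062 between RCH-ACV and REH. Besides *CCND3*, *CDKN2D* and *E2F1* had an order of lines that depended on the siRNA group. With *SOX11* siRNA, *CDKN2D* in RCH-ACV differed from REH by -0.13 ± 0.088, and with control siRNA by 0.26. In 697 *CDKN2D* was lower than in REH by a log2 difference of -0.78 ± 0.098 with *SOX11* siRNA and of -0.19 with control siRNA.

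*E2F1* was lower in RCH-ACV than in REH by a log2 difference of -0.52 ± 0.052 and than in 697 by -0.37 ± 0.052. Its difference between 697 and REH was -0.15 ± 0.051 with *SOX11* siRNA, where the samples did not overlap, and 0.06 with control siRNA, where they did.

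**Figure D4:**
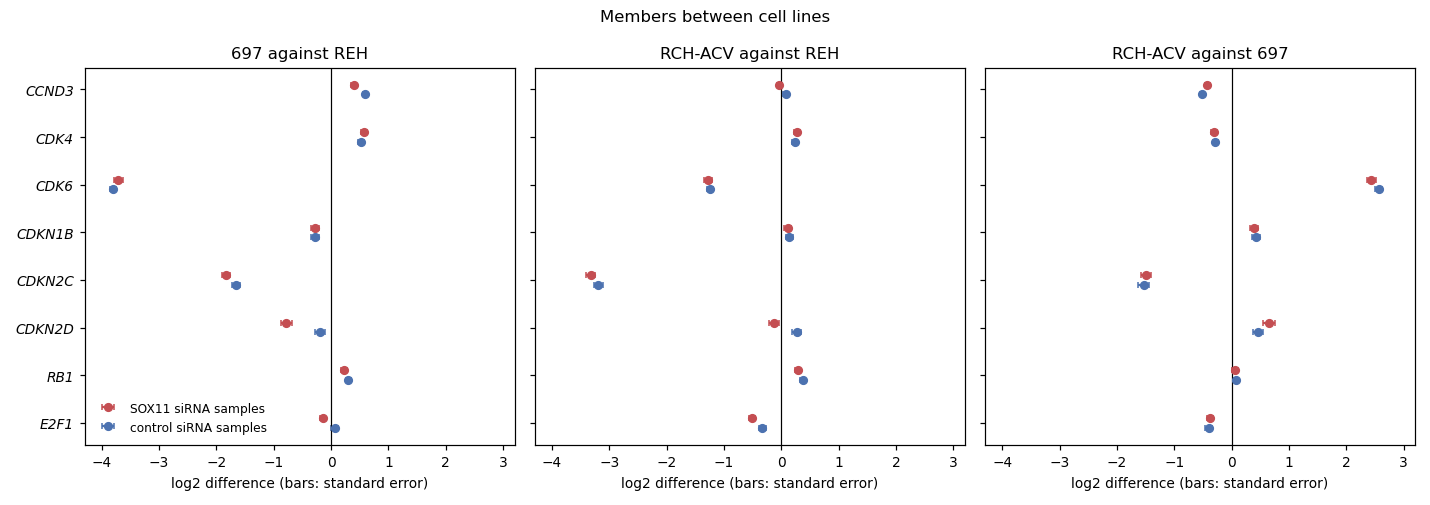
log2 difference between cell lines (horizontal axis, bars show the standard error from edgeR) for the 8 members that passed the filter on low counts, in the samples with *SOX11* siRNA and, below each, in the control samples, 3 samples for each line. *CDK6* in 697 (-3.71 with *SOX11* siRNA, -3.80 in the control samples) and *CDKN2C* in RCH-ACV (-3.33 and -3.19), both against REH, are the farthest from 0, and *CDKN2D* in RCH-ACV against REH changes side between -0.13 and 0.26.

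Around these members stand the other genes of the gate, a list of 35 that includes the cyclin E, CDK2 and CDK-activating kinases, further inhibitors, pocket proteins, E2F and DP factors, ubiquitin ligase components and the MuvB complex. It was chosen with earlier results of these data known, so nothing is read from how many of its genes were called. In REH 32 of them were tested. Of these, 7 rose, 0 fell and 25 were not called, where 4.65% of all genes were called, with a median log2 fold change of 0.05 beside -0.002 over all tested genes. *E2F2*, an activating E2F, rose by 0.31 ± 0.037 (adjusted p = 7.06e-06 in edgeR), from 188, 196 and 194 CPM to 237, 241 and 238. The atypical repressors *E2F8* and *E2F7* rose by 0.31 ± 0.050 and 0.27 ± 0.058 (adjusted p = 0.000398 and 0.00521). *MYBL2*, whose product B-Myb joins the MuvB complex in S phase, rose by 0.19 ± 0.042, *CCNE2*, the cyclin E2 gene, by 0.19 ± 0.049, and *TFDP2*, a dimer partner of the E2Fs, by 0.15 ± 0.031. *RBL2*, the p130 pocket protein, rose by 0.15 ± 0.043 (adjusted p = 0.0484).

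*E2F2*, *E2F7* and *E2F8* kept their call in REH without any of the 6 samples in turn. *CCNE2* and *RBL2* lost it in 5 of those 6 fits, all but the one without the first control sample, *MYBL2* without the first or the second *SOX11* siRNA sample and *TFDP2* without the third control sample. The count of 7 went to 4 without the third control, the first *SOX11* siRNA or the second *SOX11* siRNA sample, and to 2, *E2F2* and *E2F8*, when the 18 samples were fitted together.

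In RCH-ACV 34 of the 35 were tested. Of these, 4 fell, 0 rose and 30 were not called, where 7.51% of all genes were called, with a median log2 fold change of -0.04 beside 0.005 over all tested genes. *FBXW7*, the ubiquitin ligase subunit that marks cyclin E for destruction, had a log2 fold change of -0.33 ± 0.059 (adjusted p = 0.00204 in edgeR). *CCNE2* had -0.33 ± 0.057, *TFDP2* -0.32 ± 0.059 and *E2F2* -0.19 ± 0.056 (adjusted p = 0.0453). *TFDP2* held 71.7, 66.4 and 69.1 CPM under control siRNA and 56.8, 53.5 and 55.9 under *SOX11* siRNA in RCH-ACV, against 718, 689.8 and 680.1 and 759, 765 and 782 in REH. *FBXW7*, *CCNE2* and *TFDP2* kept their call without any of the 6 samples in turn. *E2F2* kept it only without the third *SOX11* siRNA sample, the one that stood apart, where the log2 fold change was -0.27 (adjusted p = 9.39e-06).

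In 697 33 of the 35 were tested and 0 were called in edgeR, with 3 at an unadjusted p under 0.05 (*CDK2*, *TFDP2* and *FBXW7*) and 1 called in DESeq2, *FBXW7*. *FBXW7* had a log2 fold change of -0.28 ± 0.059 (adjusted p = 0.0822) and *TFDP2* of -0.26 ± 0.067 (adjusted p = 0.198) in 697. *FBXW7* was called when both 697 samples that stood apart were left out, a fit chosen after seeing the data. None of the 3 CDK-activating kinase genes, *CDK7*, *CCNH* and *MNAT1*, was called in any line, in edgeR or DESeq2, or at an unadjusted p under 0.05.

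The siRNA effect differed between the lines for 4 of the 34 listed genes that could be tested, where 0.734% of 14026 genes differed (edgeR, both interaction terms together). These were *TFDP2* (adjusted p = 0.000989), *E2F2* (0.00308), *CCNE2* (0.0120) and *E2F8* (0.0436). With the replicate number as a block 3 were called, and *E2F8* was not (adjusted p = 0.0642). *TFDP2*, *E2F2* and *CCNE2* had called effects of opposite sign in REH and RCH-ACV in the fits of single lines. In the 18-sample fit *TFDP2* and *CCNE2* were not called in REH (adjusted p = 0.136 and 0.194 in edgeR). With each sample left out in turn, *CCNE2* in REH and *E2F2* in RCH-ACV each kept their call in 1 of 6 fits. *E2F8* stood at 0.31 in REH, -0.07 in 697 and 0.13 in RCH-ACV. Nothing is read from the count of 4, because the list was chosen with earlier results of these data known.

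**Figure D5:**
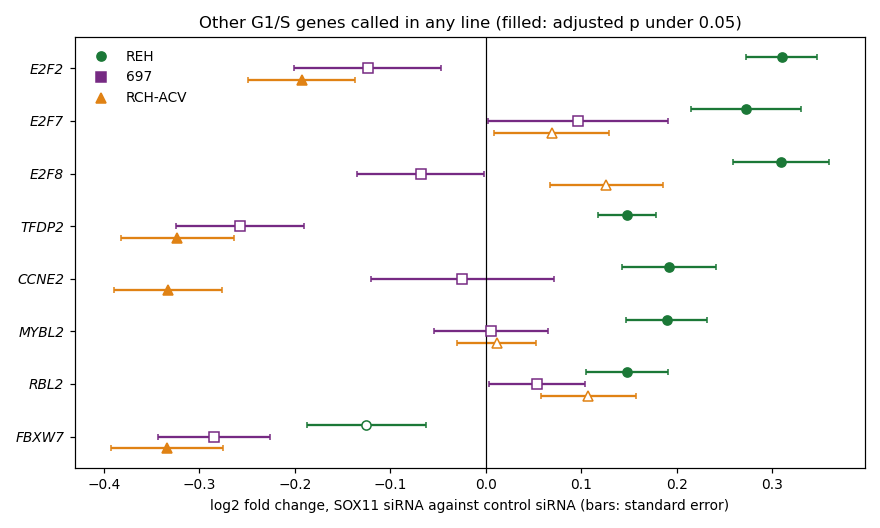
log2 fold change of *SOX11* siRNA against control siRNA (horizontal axis, bars show the standard error from edgeR, n = 3 against 3) for the 8 other G1/S genes called in any line, with filled symbols where the adjusted p was under 0.05. *E2F2*, *TFDP2* and *CCNE2* lie above 0 in REH and below 0 in 697 and RCH-ACV.

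A list of 16 S-phase genes that RB1 and E2F are known to control was also chosen with earlier results of these data known. All 16 had a log2 fold change above 0 in REH, with a median of 0.09 beside -0.002 over all tested genes. They were measured in the same 6 libraries, so their signs are not independent. In REH 3 of them rose, where 4.65% of all genes were called. These were *TK1*, thymidine kinase (0.24 ± 0.046, adjusted p = 0.00193 in edgeR), *POLA1*, the catalytic subunit of DNA polymerase alpha (0.17 ± 0.040, adjusted p = 0.0163), and *RRM2*, a ribonucleotide reductase subunit (0.13 ± 0.035, adjusted p = 0.0281). *TK1* kept its call in each fit without 1 sample. *POLA1* lost it in 3 of 6 (without the third control, the first or the second *SOX11* siRNA sample). *RRM2* lost it in 2 of 6 (without the third control or the second *SOX11* siRNA sample) and in DESeq2 (adjusted p = 0.0628). In 1 fit over the 18 samples only *TK1* was called in REH. In RCH-ACV 6 of 16 were above 0 and 1, *TK1*, rose (0.20 ± 0.053, adjusted p = 0.0254 in edgeR), where 7.51% of all genes were called. That call was lost without the second control, the third control, the first *SOX11* siRNA or the second *SOX11* siRNA sample. It was also lost in DESeq2 (adjusted p = 0.0591). In 697 9 of 16 were above 0, with 0 called in edgeR, 0 at an unadjusted p under 0.05 and 0 in DESeq2.

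E2F genes are known to carry E2F sites themselves, so the promoters of the members and of the other gate genes were searched for the letters TTTCGCGC or TTTGGCGC on both strands, and those of the activators *E2F1* and *E2F2* are shown. Sequences were RefSeq promoters (GRCh38.p14, 250 bases before to 50 after the start), which were found for 8 of the 10 members and 30 of the 35 other gate genes, not for *CCND1* and *CCND2*. The site was found in *E2F1* among the members and in *E2F2*, *CDC25A*, *TFDP1* and *RBL1* among the others, that is in 7.69% of the members' 13 promoters and 8.70% of 46, beside 1.15% of all 35116. The motifs do not overlap in these windows, and a match is a description of the letters only. The lines show 30 bases on the strand of the gene, with the motif in capitals, at chr20:33686387-33686416 (minus strand) for *E2F1* and chr1:23531257-23531286 (minus strand) for *E2F2*.
E2F1: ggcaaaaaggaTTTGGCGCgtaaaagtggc
E2F2: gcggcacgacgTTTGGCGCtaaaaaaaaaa
The match begins 20 bases before the start site in *E2F1* and 42 bases before it in *E2F2*. *RBL1*, the p107 pocket protein gene with 2 matches, and *CDC25A* and *TFDP1* were called in none of the 3 lines in edgeR. At an unadjusted p under 0.05 *TFDP1* passed in REH and RCH-ACV, and in DESeq2 none of the 3 was called.

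The genes whose within-line pattern was most like that of *E2F1* over the 18 samples, with each line's mean removed and 11309 genes compared, were *SUN2* (Pearson's r = 0.835), *PWWP3A* (0.818) and *CCDC134* (0.808). For *CCND2* they were *HBEGF* (0.828), *PAQR7* (0.827) and *GYPC* (0.796). These values are a description, since the points share libraries and siRNA. For *CCND2* nearly all counts came from the 6 REH samples, with 3 in the other 12 together, and with a prior count of 0.5 in place of 2 *HBEGF* and *GYPC* dropped to ranks 12 and 80 while *PAQR7* ranked the highest.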

How the data were processed

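RNA-seq was analysed for 18 samples of 3 cell lines, which the authors describe as 3 independent biological replicates for each siRNA in each line. After trimming, the authors mapped the reads with STAR 2.5.3a on hg19, left out those at more than 2 locations and obtained a count for each RefSeq transcript from HOMER. They deposited raw counts without normalization, and the kit was stranded. The tables hold 0 columns of other samples. Symbols were matched for 98.0% of transcripts (99.0% of counts), and the transcript with the highest total was kept for each gene, with unmatched transcripts as rows of their own.

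Each line was fitted with edgeR 4.0.16 in R 4.3.3 (TMM, filterByExpr, quasi-likelihood F-test, two-sided, Benjamini-Hochberg over all tested genes), as were the 9 *SOX11* siRNA samples between lines and the 18 samples for the interaction. On simulated data with 200 genes changed by a log2 fold of 1, the REH, 697 and RCH-ACV fits recovered 92.5, 92 and 92.5% and the 697 against REH fit 89.5%. Of the genes called there, 6.09, 6.12, 4.64 and 1.1% were false. These changes were larger than most siRNA effects given here, and all genes had the same dispersion. The recovery therefore does not show the power for the smaller effects or for noisier replicates. CPM used TMM-scaled library sizes, and RPKM the length of the MANE Select mRNA in GENCODE lifted to hg19. Standard errors were computed from edgeR's output, as the absolute log2 fold change divided by the square root of the F statistic. Intervals and floors cover counting error only. The members and gene lists were chosen with earlier results of these data known, so the members' differences between siRNAs and between lines are described, not tested. Named were all members, the listed gate genes and up to 4 S-phase genes with an adjusted p-value under 0.05 in any line, *CDKN2A*, *CDKN2B*, *SOX11*, the CDK-activating kinase, and the 3 genes most like *CCND2* and *E2F1*. Alternatives were RLE factors, library size alone, DESeq2 1.42.0, other filters, the transcript kept, the replicate block, 1 fit over 18 samples, control samples between lines and each sample left out. The replicate numbers were checked by correlating the deviations of same-numbered samples, and no pairing was evident. That check cannot exclude that samples were handled in pairs.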

Additional observations from a re-analysis of the deposited data

Results flagged for a closer look

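The effect of *SOX11* siRNA differed between the 3 lines for 4 listed G1/S genes, by edgeR's test of both interaction terms: *TFDP2* (adjusted p = 0.000989), *E2F2* (adjusted p = 0.003083), *CCNE2* (adjusted p = 0.01198) and *E2F8* (adjusted p = 0.04356, or 0.0642 with the replicate number as a block). *CCND3* was flagged because all its samples with *SOX11* siRNA lay above the control samples in REH (log2 fold change 0.10198) and below them in 697 (-0.095201), with overlap in RCH-ACV (0.0012974). *CDKN2D* was flagged because its *SOX11* siRNA samples lay above the control samples in REH (log2 fold change 0.29035) and below them in 697 (-0.29381) and RCH-ACV (-0.09518). In RCH-ACV the highest *CDKN2D* value with *SOX11* siRNA was 27.9 CPM and the lowest control value 28.2. Groups without overlap were found for 21.4% of all tested genes in REH, 13.1% in 697 and 25.9% in RCH-ACV. How many genes would be flagged by opposite directions between lines was not counted. For *CCND3* and *CDKN2D* the difference between the lines was not tested, since the siRNA response had been used in choosing them. The G1/S list too was chosen with earlier results of these data known, so nothing is read from how many of its genes were called.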

How the results depend on the processing

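The genes called for the siRNA moved from 594 to 313 (DESeq2) and 228 (1 fit over the 18 samples) in REH, from 68 to 119 (no filter on low counts), 189 (18 samples) and 194 (both samples that stood apart left out, chosen after seeing the data) in 697, and from 973 to 582 (DESeq2) in RCH-ACV. Leaving out each sample in turn gave 296 to 522 genes in REH, 25 to 70 in 697 and 386 to 2479 in RCH-ACV, the highest without the third *SOX11* siRNA sample. Members called in REH moved from 3 to 1 in DESeq2 and 5 with no filter, and to 1 to 5 with a sample left out. Listed G1/S genes called in REH moved from 7 to 2 in the 18-sample fit and to 4 to 7 with a sample left out, and in RCH-ACV they ranged from 3 to 6. In 697 the count moved from 0 to 1 in DESeq2, 1 with no filter, 2 in the 18-sample fit and 1 without both samples. Between lines, with the control samples, *E2F1* in 697 against REH turned to 0.06256 and *CDKN2D* in RCH-ACV against REH to 0.2647. The cause was not tested. Outside the members' siRNA responses, only members between lines and listed genes called in a line's main fit were followed through the alternatives. Among these, 47 combinations of a gene's value and an alternative lost the call. The 3 that gained it were all members between lines. Listed genes not called in the main fit were not followed, so their gains are not counted. *FBXW7* and *TFDP2* in 697, called in the 18-sample fit, are examples. Losses and gains can therefore not be compared. Of 8 alternatives that kept all REH samples, *E2F1* was called in 5, *CCND2* in 7 and *CDKN2C* in 8. For these members this is a description only, since the siRNA response had been used in choosing them. *E2F2* in RCH-ACV was not called with RLE factors, library size alone or DESeq2. Depth limits *CCND1* and *CCND2*, with at most 25 counts a sample.

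The replicate numbers did not pair the samples: the deviations of same-numbered samples correlated by -0.15 to 0.156. With the replicate number as a block, 29 genes were called in 697 in place of 68, *RBL2* and *RRM2* in REH and *TK1* in RCH-ACV lost their call, and *E2F8* lost it for the difference between lines (adjusted p = 0.0642), for which 80 genes were called in place of 103.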

Other observations

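*CDK6-AS1*, an antisense lncRNA gene that shares 86 exon bases (0.7% of the mRNA) with *CDK6* and was chosen after its values were seen, was counted at 35.7 to 44.3 CPM in the REH samples, 31.7 to 39.9 in RCH-ACV and 0 to 0.147 in 697, the line with the lowest *CDK6* level. Among the 35 other G1/S genes, 26 of 33 tested differed between 697 and REH in the samples with *SOX11* siRNA, 27 of 33 between RCH-ACV and REH, and 20 of 33 between RCH-ACV and 697, at an adjusted p under 0.05 in edgeR, beside 76.5, 74.7 and 65.3% of all tested genes. Of the 16 S-phase genes, 12 were called lower and 1 higher in 697 than in REH, beside 5453 lower and 5075 higher of all 13771 genes. In RCH-ACV against REH 15 were lower and 1 higher, beside 5005 lower and 5277 higher. In RCH-ACV against 697 9 were lower and 3 higher, beside 4265 lower and 4722 higher.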
